A study of Homo sapiens with 4 samples.

Results

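The bridge-like lipid transfer genes are 10 protein-coding genes: BLTP1, BLTP2, BLTP3A, BLTP3B, VPS13A, VPS13B, VPS13C, VPS13D, ATG2A and ATG2B. They were taken as a family by name, and the family was chosen by the number of exonic IGF2BP3 peaks on BLTP1 in the peak lists described here. Peak counts are therefore given as a description without a test. A peak belonged to a gene when its summit, the position of the highest signal within the peak, lay in a GENCODE 44 exon of that gene. In replicate 1, 387 of 44622 peaks met this rule, and in replicate 2, 398 of 42723 did. These were 0.906% and 0.969% of the exonic peaks of all genes. The data came from OE-19, an established human line from an esophagogastric junction adenocarcinoma (AEG), with cells fixed with UV light according to the sample labels. IGF2BP3, an RNA-binding protein and m6A reader, was pulled down from the lysate with an antibody, and the RNA recovered with it was sequenced (RIP-seq). There were 2 IGF2BP3 RIP samples and 2 input samples from the same line, all without a further treatment in the labels, and only the RIP samples had peak lists to analyse. No label says whether the replicates came from separate cultures. Each RIP sample had its own list, and the control used for calling is not given in the sources used here.

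Bridge-like lipid transfer proteins are very long rod-shaped proteins with a hydrophobic groove along their length. They span the gap between closely apposed membranes, usually with one end at the endoplasmic reticulum, and lipids are thought to flow along the groove in bulk, in contrast to shuttle-like proteins that carry single lipid molecules. Their length at the protein level comes with long coding sequences (CDS) spread over many exons. IGF2BP proteins are known for stabilizing mRNAs, and m6A, the modified adenosine that they read, is placed mostly within sequences with a GGAC core.

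To show what was recovered, the strongest coding peaks are printed. For a gene, peaks that overlapped between replicates were ranked by the mean of their fold enrichment, the ratio given by the peak caller of the authors of RIP signal to local background. The 3 highest are shown for BLTP1, which led the family in peak number, and 1 each for VPS13C and VPS13A, which had the highest mean folds of all members. The folds of paired BLTP1 peaks did not follow each other between replicates (Pearson's r of log2 fold 0.000942), so its order by mean fold is uncertain. BLTP3A, BLTP2 and ATG2A are shown as examples of the shorter members, and stretches of BLTP3B, VPS13B, VPS13D and ATG2B are not printed. Each run is the stretch inside a peak in both replicates and inside the exon of the replicate 1 summit, read 5′ to 3′ on the mRNA strand from hg38. Capitals mark GGAC.
BLTP1 exon 10, chr4:122190000-122190079, plus strand: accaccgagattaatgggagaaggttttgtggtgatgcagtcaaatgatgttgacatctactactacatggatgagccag
BLTP1 exon 55, chr4:122301354-122301397, plus strand: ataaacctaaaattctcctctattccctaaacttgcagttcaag
BLTP1 exon 23, chr4:122224532-122224668, plus strand: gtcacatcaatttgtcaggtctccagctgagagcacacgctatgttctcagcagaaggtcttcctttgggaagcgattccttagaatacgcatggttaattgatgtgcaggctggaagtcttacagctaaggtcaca
VPS13C exon 65, chr15:61908992-61909061, minus strand: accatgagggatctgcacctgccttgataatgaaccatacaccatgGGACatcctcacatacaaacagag
VPS13A exon 56, chr9:77357692-77357838, plus strand: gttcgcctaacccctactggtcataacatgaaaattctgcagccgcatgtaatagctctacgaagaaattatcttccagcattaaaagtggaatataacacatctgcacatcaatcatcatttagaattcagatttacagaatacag
BLTP3A exon 11, chr6:34856819-34856896, plus strand: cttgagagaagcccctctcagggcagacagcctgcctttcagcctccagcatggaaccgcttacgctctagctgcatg
BLTP2 exon 21, chr17:28632127-28632174, minus strand: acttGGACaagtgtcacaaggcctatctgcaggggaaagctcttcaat
ATG2A exon 24, chr11:64905578-64905655, minus strand: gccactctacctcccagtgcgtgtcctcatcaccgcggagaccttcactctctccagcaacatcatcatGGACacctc

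GGAC was absent from the 3 BLTP1 stretches and from those of VPS13A and BLTP3A. It occurred once each in those of VPS13C, BLTP2 and ATG2A, preceded by T in the latter 2 genes. The strongest shared stretches of BLTP3B, VPS13D and ATG2B, which are not printed, held no GGAC. That of VPS13B is not part of this count. The fold enrichment at BLTP1 exon 10 was 6.76 in replicate 1 (q = 3.46e-06) and 4.94 in replicate 2 (q = 0.00113), q being the multiple-testing corrected value of the authors' caller. The printed stretch is the whole of that 80-nt exon and encodes part of codons 274 to 301. At BLTP1 exon 55 the folds were 5.89 and 5.27, and at exon 23 they were 5.56 and 5.29. VPS13C exon 65 had the highest fold of any member peak in each replicate, 7.26 and 6.76. VPS13A exon 56 followed by mean fold, with 6.35 and 5.82. The ATG2A stretch had folds of 3.40 and 2.32, with a q of 1 in both replicates. The BLTP2 stretch had folds of 2.84 and 3.85, and its q was above 0.05 in both replicates.

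Exonic peaks were present in both replicates for each of the 10 genes. Among all 20033 protein-coding genes the share with a peak in both was 28%, and among the 1074 with a CDS at least as long as that of BLTP3A, the shortest here at 4323 nt, it was 53.5%. At least 1 peak with a q of at most 0.05 in each replicate, not necessarily the same peak, was found for 6 of the 10 genes. These were BLTP1, BLTP3A and the 4 VPS13 genes. By the same rule the share of the 1074 long genes was 21.5%. Since BLTP1 helped to choose the family, these counts show only where its members stand. The input libraries and the abundance of these mRNAs were not analysed here, so that many peaks and an abundant mRNA cannot be told apart.

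BLTP1, also known as KIAA1109 and related to the fly protein Tweek, carried the most peaks of the family. It had 83 exonic peaks in replicate 1 and 83 in replicate 2 (mean 83.0 ± 0, SD, n = 2), the third highest mean among protein-coding genes. Its gene (ENSG00000138688.17) lies on the plus strand of chromosome 4 at 122152331 to 122364167, and its canonical mRNA of 16162 nt has 88 exons and a CDS of 15282 nt. Per kb of this mRNA, BLTP1 had 5.14 peaks in both replicates, which ranked 39 among 5523 protein-coding genes with peaks in both replicates and 5 among the 1074 long genes. The median of the 5523 genes was 1.15 peaks per kb. The peaks lay in the CDS, with 82 and 81 summits there, 1 and 2 in the 5′ UTR and 0 in the 3′ UTR of 505 nt in either replicate.

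**Figure D1:**
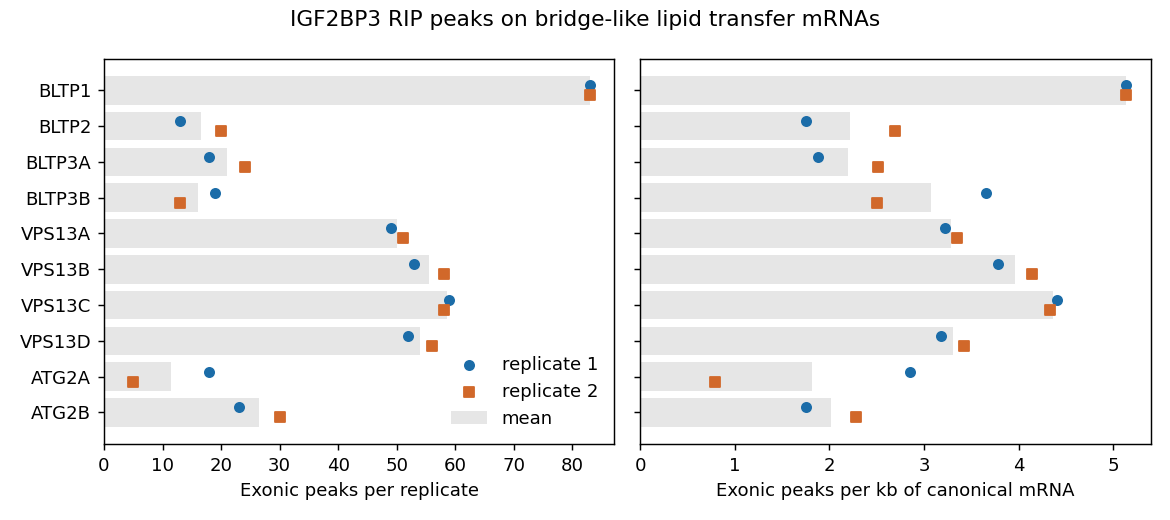
Exonic peaks of each gene (left) and exonic peaks per kb of its canonical mRNA (right), with circles for replicate 1, squares for replicate 2 and bars for their mean. BLTP1 reached 83 peaks in both replicates, the VPS13 genes 49 to 59, and ATG2A 18 in replicate 1 against 5 in replicate 2.

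The 4 VPS13 genes followed BLTP1. Their proteins differ in the membranes they join: VPS13A is lost in chorea-acanthocytosis, VPS13B, found at the Golgi, is mutated in Cohen syndrome, VPS13C bridges the endoplasmic reticulum with late endosomes and lysosomes, and VPS13D acts at mitochondria and peroxisomes. VPS13C, on the minus strand of chromosome 15 at 61852389 to 62060473, carried 59 peaks in the first list and 58 in the second. VPS13B, on the plus strand of chromosome 8 at 99013266 to 99877580, had 53 and 58. VPS13D, on the plus strand of chromosome 1 at 12230030 to 12512047, had 52 and 56. VPS13A, on the plus strand of chromosome 9 at 77177445 to 77421537, had 49 and 51. The ranges of VPS13A, VPS13B and VPS13D overlapped between neighbours or differed by 1 or 2 peaks, so that their order was not resolved. Per kb the means were 4.36 ± 0.0528 for VPS13C, 3.96 ± 0.252 for VPS13B, 3.30 ± 0.173 for VPS13D and 3.28 ± 0.0929 for VPS13A (SD, n = 2 each). VPS13B and VPS13C stood above the other two genes of the group in both replicates on this scale.

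ATG2A and ATG2B, which feed lipids to the growing autophagosome membrane and also belong to the autophagy machinery, had fewer peaks. ATG2B, on the minus strand of chromosome 14 at 96279195 to 96363341, had 23 and 30. ATG2A, on the minus strand of chromosome 11 at 64894546 to 64917209, had 18 peaks in the first replicate but 5 in the second, the widest relative spread of the family. Of its 18 replicate 1 peaks, 4 overlapped a replicate 2 peak. ATG2A also had the highest GC content in the family, 63.7% of its CDS, whereas ATG2B had 43.5% and BLTP1 had 41.4%. No ATG2A peak reached a q of 0.05, and 1 ATG2B peak did, in exon 36 in replicate 1 (fold 4.20, q = 0.0427).

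By number of peaks, the remaining BLTP genes were in the same range as the ATG2 genes. Per kb the means were 3.08 ± 0.816 for BLTP3B, 2.22 ± 0.666 for BLTP2 and 2.20 ± 0.443 for BLTP3A. ATG2B had 2.01 ± 0.376 and ATG2A 1.82 ± 1.45 per kb (SD, n = 2 each). On this scale the BLTP3B mean was nearer to those of VPS13A and VPS13D than to those of the ATG2 genes. BLTP2, the relative of the fly protein hobbit, lies on the minus strand of chromosome 17 at 28614446 to 28645454 and had 13 and 20 peaks. Other annotated genes, SPAG5-AS1 and ENSG00000264044, share exonic sequence with BLTP2 at 2 of these peaks in replicate 1 and 4 in replicate 2. The lists carry no strand, so these peaks cannot be assigned to 1 gene. Likewise, 1 VPS13A peak in replicate 2 lay in VPS13A-AS1, and 1 VPS13C peak per replicate lay in ENSG00000259564. BLTP3A, on the plus strand of chromosome 6 at 34792083 to 34877514, had 18 and 24 peaks. Its paralog BLTP3B, on the minus strand of chromosome 12 at 100028455 to 100142874 and known for acting on endosomal vesicles, had 19 and 13. The ranges of both paralogs overlapped. Their strongest shared peaks differed in fold, with 5.65 and 4.97 in exon 11 of BLTP3A and 3.10 and 3.50 in exon 15 of BLTP3B.

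**Figure D2:**
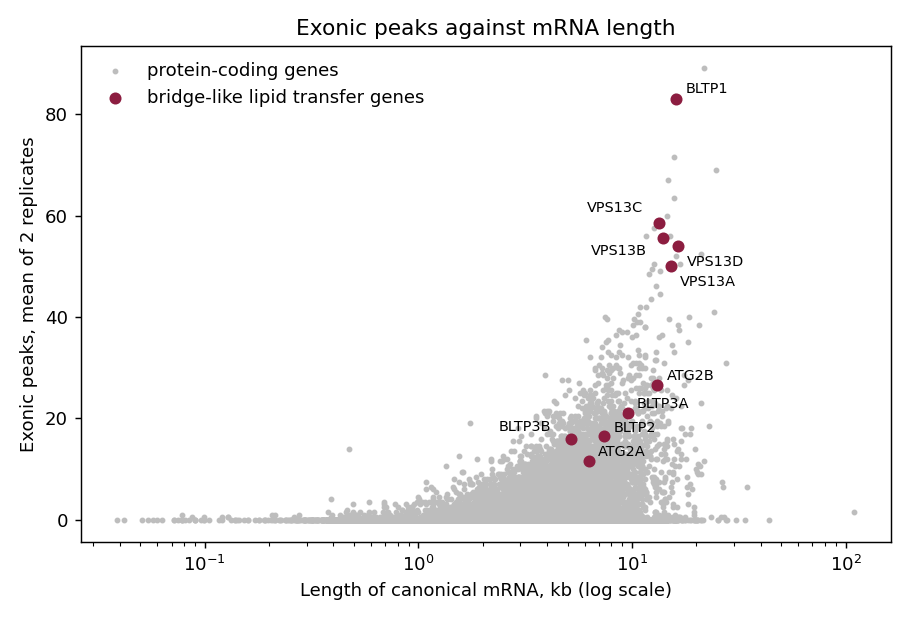
Exonic peaks (mean of 2 replicates, vertical axis) against the length of the canonical mRNA in kb (log scale, horizontal axis), with a grey point for each protein-coding gene and a red point for each bridge-like lipid transfer gene. BLTP1 and the VPS13 genes had more peaks than BLTP2, BLTP3A, BLTP3B, ATG2A and ATG2B. The vertical axis is not scaled by length. Per kb, BLTP3B was at percentile 90.3 of the 1074 long genes, beside 91.5 for VPS13A and 91.8 for VPS13D.

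Peak number rose with length in this family, which includes BLTP1, the gene whose peak count chose it. Whether length accounts for the counts was not tested. Over the 10 genes, the mean number of peaks had a Spearman's rho of 0.842 with mRNA length and 0.857 with the number of exons. Over the 5523 protein-coding genes with peaks in both replicates these values were 0.535 and 0.473, and over the 1074 long genes, many of which had no peak, 0.193 and 0.0813. Peaks per kb and GC content of the CDS had a rho of −0.60 over the 10 genes and −0.0414 over the 5523. These are descriptions across genes that share the same libraries. Per kb, the 10 genes ranged from percentile 72.2 (ATG2A) to 99.3 (BLTP1) of the 5523 genes.

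By the rule used here, each counted peak has its summit in an exon. How the summits were spread over the exons differed between members. In BLTP1, 81 of 88 exons held exactly 1 summit in replicate 1, and 81 did in replicate 2. In both replicates 77 exons held a summit, and a single exon, number 50 with 51 nt, held none in either. Exon 47, of 707 nt, held 2 summits in each replicate. Over the family, 294 of 541 exons (54.3%) held a summit in both replicates and 92 (17.0%) in neither. The exons with a summit in both had a median length of 164 nt and those without any 96.5 nt. In the 1074 long genes, 17.4% of 38294 exons held a summit in both replicates, with a median of 165 nt, and 68.7% held none, with a median of 132 nt. Between members, the share of exons with a summit in both replicates was 87.5% in BLTP1, 77.4% in VPS13B, 66.7% in BLTP3A, 57.1% in BLTP3B, 54.1% in VPS13C, 51.4% in VPS13D, 48.6% in VPS13A, 33.3% in ATG2B, 23.1% in BLTP2 and 7.32% in ATG2A. Both ends of a peak lay within 20 nt of the ends of the exon that held its summit for 27.7% and 27.6% of member peaks in the first and second replicates. Over all peaks on mRNAs these shares were 18.3% and 19.9%. Peaks were called along the genome, where introns lie between the exons of an mRNA. In BLTP1, exons 80 and 81 each had a peak of their own in replicate 1, while in replicate 2 a single peak at chromosome 4, 122349175 to 122349625, overlapped both. How many binding sites the 83 peaks stand for was not tested.

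**Figure D3:**
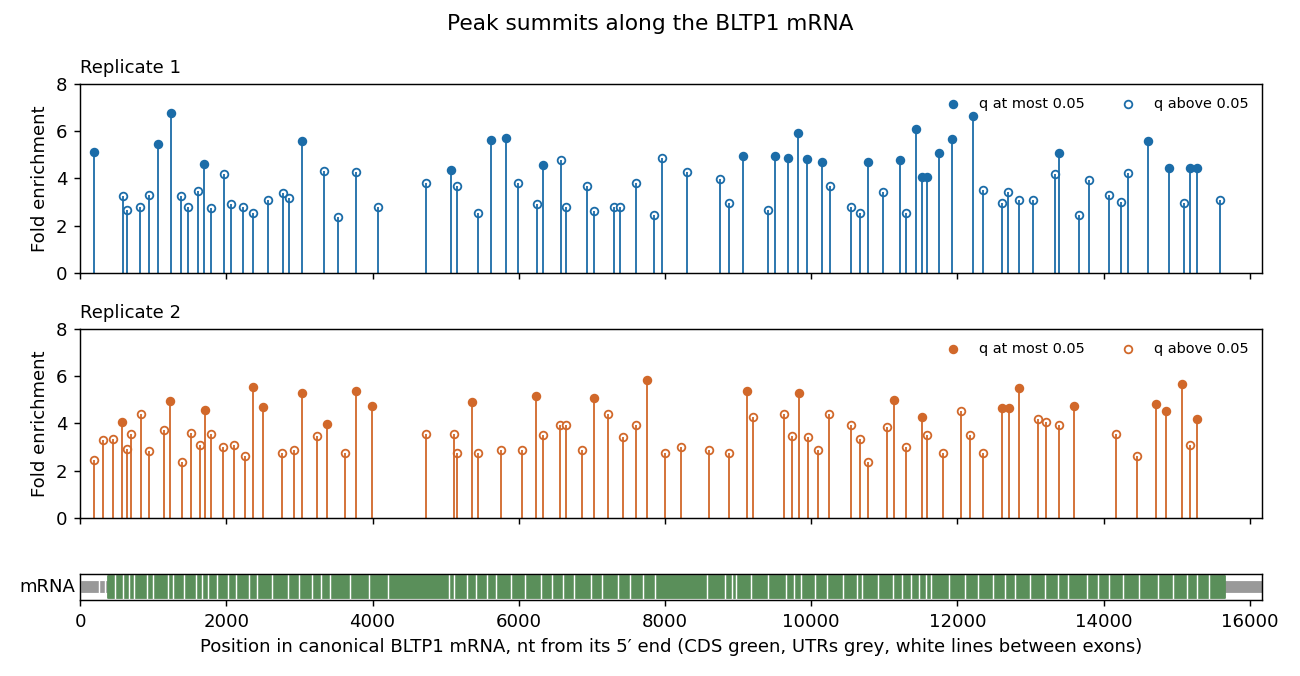
Fold enrichment of each BLTP1 peak at its summit (vertical axis) along the canonical mRNA in nt from its 5′ end (horizontal axis), with replicate 1 above and replicate 2 below, filled points for a q of at most 0.05 and the exons drawn underneath. Summits run through the whole CDS in both replicates, while the filled points mark mostly different exons.

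A measure that depends less on where 1 peak ends and the next begins is the share of the CDS that lay inside a peak. For BLTP1 it was 80.6% in replicate 1 and 79.5% in replicate 2. For VPS13B it was 65.7% and 70.3%, for BLTP3A 65.0% and 64.5%, for VPS13C 57.7% and 53.4% and for VPS13A 54.0% and 52.6%. VPS13D had 47.6% and 42.4%, ATG2B 36.8% and 46.9%, BLTP3B 39.8% and 27.2%, BLTP2 23% and 31.3%, and ATG2A 28.1% and 12.3%. BLTP3A, with 18 and 24 peaks, therefore had more of its CDS inside peaks than VPS13A, VPS13C and VPS13D in both replicates. The same bases were inside peaks in both replicates for 68.6% of the BLTP1 CDS, where the product of the replicates' shares is 64.1%. In ATG2B they were 23.4% against a product of 17.3%, in BLTP3B 19.7% against 10.8% and in ATG2A 5.43% against 3.46%. The share in both replicates was above the product in all 10 genes, a description with no test.

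**Figure D4:**
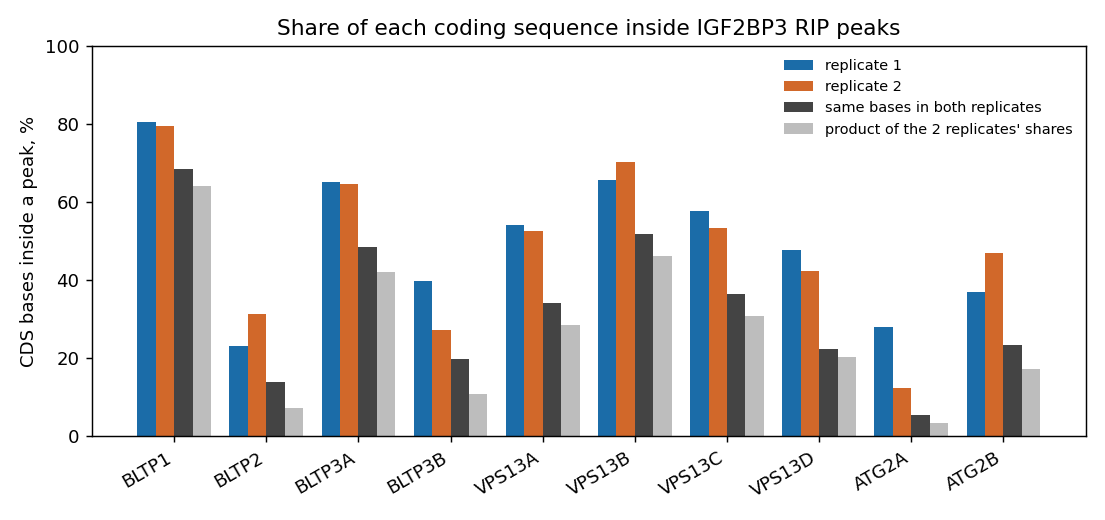
Percentage of CDS bases inside a peak for each gene in replicate 1, in replicate 2 and in both at the same bases, beside the product of the replicates' shares. Bars start at 0, and the dark bar lies above the light grey bar in each of the 10 genes.

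Summits in the 10 genes were almost all in the CDS. Of the summits on the canonical mRNAs, the CDS held 368 of 386 in replicate 1 and 377 of 398 in replicate 2, a mean of 95.0% ± 0.434, the 3′ UTR 4.21% ± 0.0893 and the 5′ UTR 0.762% ± 0.344 (SD, n = 2 each). For all mRNAs the CDS held 78.0% ± 1.02 and the 3′ UTR 18.3% ± 0.932 (SD, n = 2 each). The CDS made up 75.9% of the summed length of the 10 mRNAs and the 3′ UTR 22.5%. Per kb, the family had 4.15 and 4.25 summits in the CDS and 0.609 and 0.647 in the 3′ UTR. Summits per kb do not measure covered bases, which are given above for the CDS and below for the 3′ UTR. The longest 3′ UTRs of the family held few summits. The 3′ UTR of ATG2B, 6560 nt, held 3 and 1 summits, and that of VPS13A, 5531 nt, held 4 and 5.

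A low number of summits did not always mean an empty 3′ UTR. In BLTP3A, the 3′ UTR of 5076 nt held 2 and 5 summits, but 54.4% and 56.2% of its bases lay inside peaks, and 36.2% in both replicates. In replicate 1 a single peak of 2475 bp, at chromosome 6, 34872343 to 34874817, covered the start of this UTR its summit lying 31 nt after the stop codon (fold 3.93, q = 0.483). Replicate 2 had a peak of 1177 bp there, at 34872372 to 34873548, its summit lying 75 nt after the stop codon (fold 4.17, q = 0.263). In ATG2B the covered share was 12% and 2.01%, with 0% in both. For VPS13A it was 17.8% and 20.6%, and its summits 19 nt after the stop codon in replicate 1 and 18 nt in replicate 2 belonged to overlapping peaks with folds of 3.33 and 3.94.

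Pooled over the family, the summits within the CDS were spread from end to end, but single members were not all evenly covered. In VPS13A and VPS13C, exons with a summit in both replicates were sparser towards the start codon than towards the stop codon. This unevenness was not tested. With each CDS cut into 5 stretches of equal length, the one after the start codon held 21.5% and 20.2% of the CDS summits of the family, against 15.7% and 16.2% over all mRNAs. The one before the stop codon held 21.2% and 22.8%, against 21.8% and 21.3%.

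Most member peaks were found in both replicates. Of the member peaks, 78.8% in replicate 1 overlapped a replicate 2 peak by at least 1 bp, and 76.9% in replicate 2 overlapped a replicate 1 peak, compared with 60.8% and 64.6% of all exonic peaks. In BLTP1 these shares were 95.2% and 94.0%, next to a CDS that was mostly inside peaks. Without BLTP1 they were 74.3% and 72.4% for the other 9 genes. In ATG2A they were 22.2% and 80.0%, from 4 peaks per replicate. In replicate 1, 71 member peaks (18.3%) passed a q limit of 0.05, and in replicate 2, 59 (14.8%) passed it. The shares of all exonic peaks were 10.1% and 7.7%. Without BLTP1 the member shares were 14.1% and 10.8%. Of the 71 and 59 member peaks within the limit, 64 and 56 overlapped a peak of any q in the other replicate, and 24 pairs were within the limit in both. BLTP1 had 28 and 25 such peaks, VPS13B 15 and 11, VPS13A 13 and 7, VPS13C 5 and 9, VPS13D 4 and 5, BLTP3A 4 and 2, and BLTP3B and ATG2B 1 and 0 each.

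The fold enrichment of BLTP1 peaks in one replicate did not follow that in the other. Its folds ran from 2.35 to 6.76 with a median of 3.67 in replicate 1 and from 2.37 to 5.82 with a median of 3.57 in replicate 2. Across the 79 replicate 1 peaks with an overlapping replicate 2 peak, Pearson's r of log2 fold was 0.000942 and Spearman's rho was −0.0152. Of the 28 replicate 1 peaks within the q limit, 26 overlapped a replicate 2 peak, and in 10 of these the replicate 2 peak was within it too. The strongest replicate 2 peak, in exon 46 with a fold of 5.82, was paired with a replicate 1 fold of 2.45. In the other 9 genes r was 0.382 and rho 0.330 over 226 pairs, and over all exonic peaks r was 0.316 and rho 0.294 over 25978 pairs. By gene, r was 0.487 in VPS13A (38 pairs), 0.486 in VPS13C (48 pairs), 0.405 in VPS13D (36 pairs) and 0.250 in VPS13B (50 pairs). Peaks of 1 mRNA share their library and transcript, so these correlations describe the peaks and carry no test. Fold values also recurred, with 195 distinct values among the 387 peaks of replicate 1, and the strongest replicate 2 peaks of BLTP1 and VPS13A both had 5.82.

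**Figure D5:**
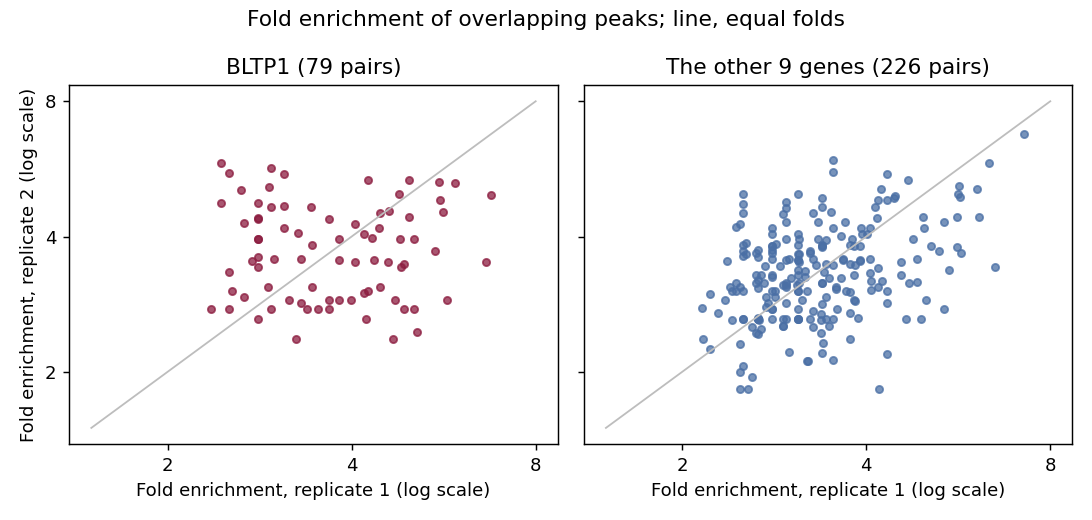
Fold enrichment of overlapping peaks in replicate 1 (horizontal axis) and replicate 2 (vertical axis), both on log scales, for BLTP1 (left, 79 pairs) and the other 9 genes (right, 226 pairs), with a line of equal folds. The BLTP1 points show no slope (r = 0.000942), and the points of the other genes lean upward (r = 0.382).

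GGAC, the core of the m6A sequence, and TGGAC, which extends it by 1 base, were counted on the mRNA strand in windows of 101 nt centred on the summits. Each TGGAC is also a GGAC. GGAC was present in 29.5% of 386 member windows in replicate 1 and 28.7% of 397 in replicate 2, where all windows of that length along the member CDSs gave 29.3%. For TGGAC the values were 14.5% and 14.1% against 15.7%. Around the summits of member peaks within the q limit of 0.05, 9.31% ± 1.22 of windows held TGGAC, compared with 14.3% ± 0.284 for all member peaks (SD, n = 2 each). The peaks within the limit were only 71 and 59, so the lower share rests on few windows. At folds of 5 or more the share was 11.2% ± 6.45 (SD, n = 2). These differences were not tested, and all mRNAs were not compared at the same limits. Around the summits of all mRNAs, GGAC was present in 32% of windows in both replicates and TGGAC in 12.9% in both. All windows along the CDSs of the long genes, a different set of mRNAs, gave 36.5% and 14.9%. In BLTP1, 14 of 83 windows held TGGAC in each replicate, and the VPS13 genes had shares of 7.69% to 16.9%. The shorter members, with few windows each, differed in both directions. TGGAC was in 0 of 19 and 0 of 13 windows in BLTP3B and 2 of 23 and 3 of 30 in ATG2B. It was in 5 of 13 and 5 of 20 in BLTP2, 5 of 18 and 5 of 24 in BLTP3A, and 6 of 18 and 1 of 5 in ATG2A. The motif CACTC, searched in the same way, was present in 4.92% and 7.56% of member windows and the motif ACACA in 8.55% and 7.30%, against 6.0% and 8.95% of all windows along the member CDSs. Around the summits of all mRNAs, CACTC was present in 8.75% and 8.31% and ACACA in 11.3% and 10.9%. The median GC content of the member windows was 42.6% in both replicates, below that of all windows, 48.5% and 47.5%.

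The genes whose pattern was most like that of BLTP1, by distance over 4 values (log2 peaks per kb and log2 highest fold in each replicate), were USP34, UBAP2L, ARHGEF11, UBR4 and ALOX5, at distances of 0.201 to 0.245. USP34, a ubiquitin-specific protease with a CDS of 10641 nt, had 54 and 58 peaks. UBR4, a giant ubiquitin ligase with a CDS of 15552 nt, had 88 and 79. ALOX5, the lipoxygenase that starts leukotriene synthesis, had 12 peaks in each replicate on a CDS of 2025 nt, so that a density like that of BLTP1 was also reached on a short mRNA.

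Other genes of lipid transfer were compared by lists of 65 genes in all, none of them a member. A peak in both replicates was found for 43 of the 65, against the 28% of all protein-coding genes given above, in 1 replicate only for 9 and in neither for 13. Of 30 genes listed as shuttle-like transfer proteins, such as the oxysterol-binding proteins, 22 had a peak in both replicates. The median of this list was 4 peaks and 1.07 peaks per kb. The list also held NPC1, a lysosomal exporter rather than a shuttle. Of 17 partners of bridge-like proteins at contact sites, such as the ATG2-binding scramblases and the VAP receptors, 9 had one, with a median of 1 peak and 0.294 peaks per kb. These counts were 4 of 7 for the tubular tethers with SMP domains (median 8 peaks) and 8 of 11 for lipid scramblases (median 2 peaks). The median of the 10 bridge-like genes was 38.2 peaks and 3.18 peaks per kb. Among the other genes NPC1, which exports cholesterol from lysosomes, had the most peaks per kb, with 18 and 20 peaks and 3.99 per kb, followed by OSBPL9 with 13 and 16 peaks and 3.96 per kb and OSBPL10 with 10 and 13 and 3.17 per kb. ATG9A, the scramblase partner of ATG2, had 6 and 8 peaks, and VMP1 had 1 and 0. Since the lists hold only peaks above the limit of the caller and the read depth is unknown, a gene without a peak is one where none was detectable.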

How the data were processed

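According to the methods, the authors mapped paired-end RIP reads to hg38 with Tophat2 and called peaks with MACS2 at default settings. The submitters' processing notes list fastp, HISAT2 and MACS2. Versions and the control used for calling are not given in the sources used here. The deposited narrowPeak lists give, for each peak, a fold enrichment (ratio of RIP signal to local background), a −log10 p, a −log10 q and a score, all made by the authors' caller. The score was not used. Read depth is unknown, so no counting interval was computed. All 24 chromosomes of the lists were found in the hg38 reference, and 0 peaks ran past a chromosome end.

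Summits were assigned to GENCODE 44 exons without regard to strand, and positions in mRNAs used the canonical coding transcript of each gene (found for 19688 of 20033 protein-coding genes). Replicates were taken from the sample titles. An overlap of 1 bp or more made a peak shared, and each was paired with the peak of largest overlap. CDS coverage used all peaks that touch the mRNA. No test was run, because the members and gene lists were chosen with earlier results of these data known. Named genes were all members, the 5 genes nearest to BLTP1 and the 3 listed genes with most peaks per kb, and ATG9A and VMP1 were named after their values had been seen. Position mapping and overlap were tested on simulated data. The software was Python 3.11.15 with matplotlib 3.10.9, pysam 0.24.0, scipy 1.17.1, pandas 2.3.3 and numpy 2.4.6.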

Additional observations from a re-analysis of the deposited data

Results flagged for a closer look

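Summits in introns of the 10 genes lie outside the exonic peaks described above. There were 4 in replicate 1 and 2 in replicate 2, and the counts of exonic peaks above did not include them. They were not compared with a control sample, and no test was run on these counts. They lay in VPS13A (1), VPS13B (1) and VPS13C (2) in replicate 1 and in VPS13C (2) in replicate 2. Of the 4, 3 overlapped a replicate 2 peak. The VPS13C peak at chromosome 15, 61984927 to 61985015, had a fold of 2.55 in replicate 1, and the one at 61984913 to 61985016 in replicate 2 had a fold of 3.38, both with a q of 1. Another VPS13C peak of replicate 2, at 61934202 to 61934333 (fold 3.12), overlapped the replicate 1 peak of exon 49. It was therefore used above as the partner of that peak. Peaks of this kind that touch the mRNA also entered the CDS coverage.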

How the results depend on the processing

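Assigning peaks by any overlap with an exon, by the gene body or by the midpoint kept the peak counts within 1.5 times those reported and all 10 genes with a peak in both replicates. Stricter limits leave fewer peaks by construction. With a q of at most 0.05, the mean was 65 peaks for the family and 26.5 for BLTP1, 6 genes had a peak in both replicates, 37.2% of peaks overlapped a peak that met the same limit in the other replicate, 98.4% of summits were in the CDS and 9.31% of windows held TGGAC. At folds of 5 or more the same values were 24.5, 11.5, 4, 25.8%, 98.3% and 11.2%, and with a p of at most 1e-05 they were 97.5, 33, 7, 34.9%, 99.0% and 10.8%. When the overlap had to cover 50% of each of the 2 peaks, 58.5% were shared. The CDS share was 94.4% by midpoints and 96.7% in shared peaks. TGGAC was present in 6.25% of windows of 25 nt on either side, 24.4% of 100 nt on either side and 13.9% of windows at shared peaks. Leaving out BLTP1, a choice made with the data already known, gave 73.4% shared, 94.2% in the CDS and 13.6% with TGGAC. Leaving out a replicate gave 387 to 398 peaks for the family, 83 for BLTP1, 76.9% to 78.8% shared, 94.7% to 95.3% in the CDS and 14.1% to 14.5% with TGGAC. No paired analysis was possible because the input samples had no values here and no test between groups was run.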
